A study of Mus musculus with 4 samples.

Results

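Thalamic excitatory neurons were taken from single-nucleus RNA counts of mouse hippocampus as barcodes chosen by their UMI counts of marker genes. A barcode counted when it held at least 500 detected genes, at least 2 UMIs (unique molecules) of Slc17a6, at least 2 of Tcf7l2, at least 1 UMI of Lef1, Prkcd, Zic1, Shox2 or Ntng1, and at most 1 UMI of Gad1 and Gad2 together. The rule took 146 of 60288 barcodes, or 146 of the 59750 with at least 500 genes. They came from 4 libraries, 1 for each genotype of monoacylglycerol lipase (MAGL, the enzyme encoded by Mgll that degrades the endocannabinoid 2-arachidonoylglycerol). WT is wild type, tKO is labelled as lacking MAGL in the whole animal, aKO in astrocytes and nKO in neurons. The sources used here do not state the Cre drivers, the ages, the strain or the number of animals behind a library. Each genotype has 1 library and no replicate, no test was made between genotypes, and nuclei of 1 library are not replicates of its genotype. All intervals are 95% intervals that cover counting error only.

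The thalamus lies beneath the hippocampus and is no part of it. Its excitatory neurons relay sensory and limbic signals to the cortex and fill glutamate vesicles mainly through VGLUT2, the product of Slc17a6, whereas most excitatory neurons of hippocampus and cortex use VGLUT1, the product of Slc17a7. Tcf7l2 encodes a transcription factor of the Wnt pathway that sets the identity of thalamic and habenular neurons after they leave the cell cycle, and Lef1 encodes a related factor. Zic1 and Shox2 are transcription factor genes, Prkcd encodes protein kinase C delta, and Ntng1 encodes netrin-G1, an adhesion molecule of thalamocortical axons. Thalamic neurons fire in bursts through T-type calcium channels, which Cacna1g encodes in relay cells.

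The nuclei were spread unevenly over the libraries. The library labelled tKO held 128 of them, or 0.414% (0.345% to 0.492%) of its nuclei with at least 500 genes. The aKO library held 15, or 0.141% (0.0787% to 0.232%), the WT library held 2, or 0.0215% (0.00260% to 0.0776%), and the nKO library held 1, or 0.0113% (0.000286% to 0.0629%). The tKO library thus supplied 87.7% of the thalamic nuclei and 51.8% of all nuclei with at least 500 genes. Its share was 2.94 times that of aKO (1.72 to 5.41), and the share in aKO was 6.54 times that of WT (1.52 to 59.0). The intervals of tKO and aKO did not overlap each other, and those of WT and nKO did.

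Medium spiny neurons, the main inhibitory cells of the striatum and likewise no part of the hippocampus, were counted beside them. They were taken as nuclei with at least 2 UMIs of Rgs9, at least 1 of Gad1 and Gad2 together and at least 1 of Drd1, Drd2, Adora2a or Penk. The tKO library held 728 (2.35%), WT 35 (0.376%), aKO 19 (0.178%) and nKO 18 (0.203%), so tKO supplied 91.0% of them. Both kinds of nuclei were thus most frequent in tKO. In aKO they parted, since the medium spiny share was 0.474 times that of WT (0.256 to 0.851) while the thalamic share was above that of WT. Genotype, dissection and library cannot be told apart in this design, and the part of each in these shares was not tested.

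**Figure D1:**
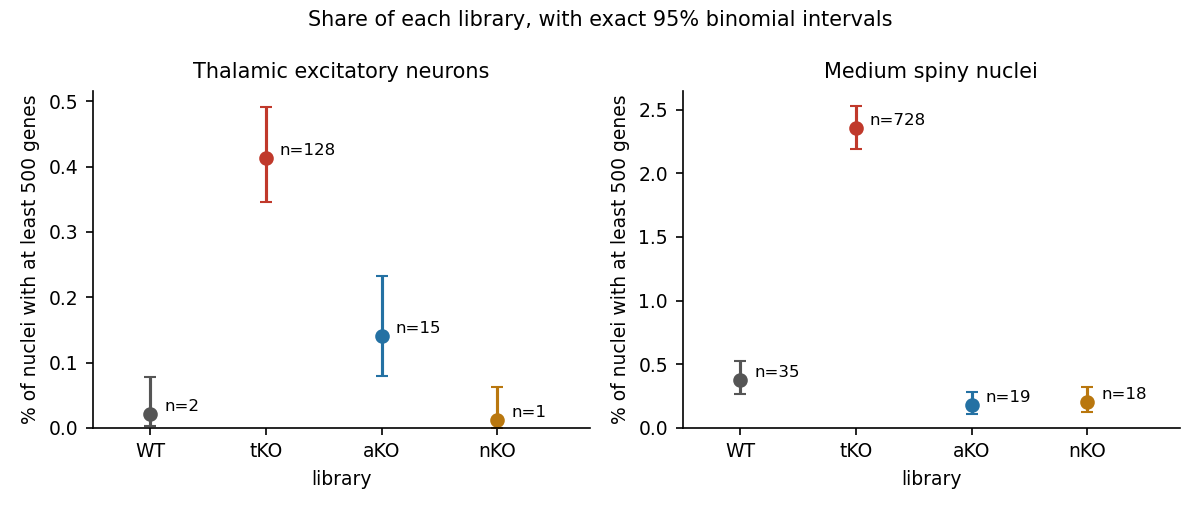
Share of nuclei with at least 500 genes that met the rule for thalamic excitatory neurons (left) and for medium spiny nuclei (right), in percent, for the 4 libraries. Points are shares, bars are exact 95% binomial intervals and n is the number of nuclei. The tKO library lies highest in both panels, and aKO is second only for thalamic nuclei.

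Depth, doublets and sex genes differed between the libraries. The tKO library had the lowest median depth, 5493 UMIs per nucleus against 7481 to 8936.5 in the other 3, and its thalamic nuclei had a median of 7351 UMIs against 8759 in aKO. When every nucleus was thinned to 2000 UMIs and shallower ones were left out, 13 thalamic nuclei were found in tKO, 1 in aKO and 0 in WT and nKO. The doublet caller Scrublet marked 41 of the 128 tKO nuclei (32.0%), 1 of the 2 in WT and 0 in aKO and nKO, beside 23.3% of all tKO barcodes and 1.98% to 5.87% in the other libraries. Without the marked barcodes 87 thalamic nuclei remained in tKO, 15 in aKO, 1 in WT and 1 in nKO. Of the 128 tKO nuclei, 5 had a barcode that also occurred in another library, as did 1252 of all 31243 tKO barcodes. Xist was at 0 UMIs in the 128 tKO nuclei and was found in 9 of the 15 in aKO, and Uty, a Y-linked gene, was found in 102 and 5 of them, so sex moved with the library.

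Mgll, the targeted gene, was counted first. The 128 tKO nuclei held 61 Mgll UMIs in 44 nuclei, which is 61.4 CPM (counts scaled to 1000000 UMIs; 47.0 to 78.9), against 77.7 CPM in other excitatory nuclei of the same library. The 15 aKO nuclei held 1 Mgll UMI, or 8.05 CPM (0.204 to 44.9), against 107 CPM in the other excitatory nuclei of aKO. The 2 WT nuclei held 1 UMI and the nKO nucleus held 0. Other excitatory nuclei stood at 102 CPM in WT and 106 CPM in nKO. An Mgll UMI was found in 34.4% of the thalamic nuclei and 40.0% of the other excitatory nuclei of tKO. Free RNA and doublets can add UMIs, and their part in these counts was not tested. The sources used here do not state which part of the gene is deleted, so these counts check no label.

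The genes of the rule chose the nuclei, and their values are given as a description. Over the 146 nuclei Slc17a6 had a median of 3 UMIs (range 2 to 11) and Tcf7l2 a median of 5 (2 to 14). Ntng1 was detected in 138 nuclei, Lef1 in 111, Zic1 in 81, Prkcd in 77 and Shox2 in 46. All 5 of these genes were present together in 22 nuclei, of which 18 came from tKO and 4 from aKO. Another 23 nuclei held 1 of the 5, and 18 of these held Ntng1, a gene that 57.4% of other excitatory nuclei in tKO also carried. Gad1 gave 4 UMIs and Gad2 gave 3 over all 146. The Slc17a6 gene lies at chr7:51622006-51671119 and Tcf7l2 at chr19:55741820-55933654 (mm10, GENCODE M21), both on the plus strand.

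Nuclei on either side of the thresholds were compared in tKO. With exactly 2 Slc17a6 UMIs there were 54 of the 128, at 2338 CPM of Rora, 594 of Synpo2, 479 of Lef1 and 2134 of Adarb2. Another 67 nuclei failed the rule only by having 1 Slc17a6 UMI, and stood at 2136, 708, 604 and 2682 CPM of these 4 genes. Mobp, an oligodendrocyte gene, stood at 28.9 CPM in these 67 and at 0 in the 54. With exactly 2 Tcf7l2 UMIs there were 18 nuclei, at 1745, 367, 262 and 1310 CPM of the same 4 genes. The 19 that failed only by having 1 Tcf7l2 UMI stood at 1718, 277, 238 and 476 CPM, so Adarb2 differed most. The 468 that met the rest with 0 Tcf7l2 UMIs stood at 4.28 CPM of Synpo2 and 12.8 CPM of Lef1. In inhibitory nuclei, which should lack both genes, 0.218% to 1.17% had at least 2 Slc17a6 UMIs and 0% to 1.05% had at least 2 Tcf7l2 UMIs. Both together occurred in 6 of 4179 inhibitory nuclei of tKO, a class with a median of 6082 UMIs. They occurred together in 0 dentate granule nuclei of any library. Nuclei that met the rule had been left out of that class beforehand, so this 0 was largely fixed in advance and nothing is read from it. The 6 inhibitory nuclei with both genes were among the 9 tKO nuclei that failed the rule only by more than 1 UMI of Gad1 and Gad2. The 9 had a median of 12580 UMIs. They stood at 1673, 313, 259 and 2719 CPM of Rora, Synpo2, Lef1 and Adarb2. Why they held both Gad and thalamic UMIs was not tested.

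Some thalamic genes that the rule did not name were high in the same nuclei, while Lhx2, Etv1 and Calb1, given further on, were not. The comparison was made within a library, against nuclei with at least 2 Slc17a7 UMIs, no Slc17a6 or Tcf7l2 UMI and at most 1 of Gad1 and Gad2, which numbered 7685 in tKO and 4555 in aKO. Since expression chose the nuclei, this contrast is a description. Synpo2, which encodes the actin-binding protein synaptopodin-2, stood at 689.7 CPM in the 128 tKO nuclei and 5.51 CPM in the others, 125-fold (110.0 to 143). In aKO it stood at 926 against 4.93 CPM, the 2 WT nuclei held 48 UMIs and the nKO nucleus held 0. Plekhg1, a guanine nucleotide exchange factor for small GTPases, stood at 758 against 18.1 CPM in tKO, 41.9-fold (38.2 to 46.0), and at 1127 against 14.7 CPM in aKO. Rora, the gene of a nuclear receptor of sensory thalamus, stood at 2399 against 648 CPM in tKO, 3.70-fold (3.55 to 3.86), and at 2939 against 525 CPM in aKO. Rora was found in 127 of the 128 tKO nuclei, and its level lay above that of the other excitatory nuclei in each of the 4 libraries, at 2255 CPM in WT and 1279.7 CPM in nKO. The 2 WT nuclei were unlike: 1 held 82 of the 88 Rora UMIs and all 48 of Synpo2, and the other stood at 468 CPM of Rora with 0 UMIs of Synpo2, Plekhg1, Adarb2 and Lef1.

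Over all genes, 2215 reached 100 UMIs in the 128 nuclei or were expected to by the level of the comparison nuclei. Of these 87 (3.93%) were at least 4-fold higher and 62 (2.8%) at least 4-fold lower in the thalamic nuclei of tKO, together 149 (6.73%). A gene could enter through the side where it was high, so these counts describe the contrast and nothing is read from them. In aKO 86 of the 87 were also higher and 83 of them at least 4-fold, and all 62 were also lower, 58 at least 4-fold. The rule was the same in both libraries, so this is not an independent check.

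The 20 highest ratios in tKO, leaving out the genes of the rule, ran from 262-fold to 12.8-fold. These ratios rested on the comparison nuclei. Against all other barcodes of tKO, other cell types included, the 20 log2 ratios ran from 0.06 to 6.18, and 4 were under 4-fold: Nxph1 at 0.06, Ptprm at 1.504, Btbd11 at 1.86 and Vwc2 at 1.97, beside 4.14, 4.32, 5.98 and 4.83 against other excitatory nuclei. Gm29478 moved from 8.03 to 4.55 and Ebf1 from 6.17 to 3.03, while Synpo2 stayed at 5.82. Against dentate granule nuclei, and with nuclei marked by Scrublet left out, all 20 stayed at least 4-fold higher. Ebf1, a helix-loop-helix factor, stood at 119.8 against 1.66 CPM, Zfhx3, a homeobox zinc finger factor, at 816 against 18.8 CPM, and Rnf220, a ubiquitin ligase, at 834 against 40.2 CPM. Zfhx3 was present in 114 of the 128 nuclei and Ebf1 in 41, so the second marked a minority. The highest ratio, 262-fold (171 to 415), belonged to Gm29478, a long non-coding RNA at chr9:91404474-91562818 on the plus strand. It was found in 35 nuclei.

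The others of the 20 are given by gene. Ptprm, a receptor tyrosine phosphatase, stood at 546 against 27.4 CPM and was present in 111 of the 128 nuclei. Nxph1, a secreted ligand of neurexins, stood at 488 against 27.7 CPM in 68 nuclei. Adamts19, a secreted metalloprotease, stood at 177 against 0.853 CPM in 56 nuclei, and at 427 against 0.545 CPM in aKO. Vwc2, an antagonist of bone morphogenetic proteins, stood at 181 against 6.36 CPM in 86 nuclei. Syt9, a synaptotagmin, was 15.0-fold higher. Amotl1, Btbd11, Mctp2, Ddah1 and Cpne9 were 79.7-fold, 63.2-fold, 14.4-fold, 13.4-fold and 12.8-fold higher. Among the 20, detection ranged from 35 to 118 of the 128 nuclei.

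Promoter windows of the leading genes were searched for the letters of 2 motifs. RefSeq windows (GRCm38.p6) from 250 bases before a start were matched for 18 of the 20 leading genes and for all 7 genes that the rule required or accepted. The TCF/LEF letters CTTTGAT were searched on both strands, as were the ROR letters AGGTCA, and the motifs do not overlap. The first set occurred in 0 of 18 leading genes and 0 of 7 rule genes, against 3.72% of 27025 genes. The second occurred in 2 of 18 and 0 of 7, against 15.8% of all genes. With so few genes these counts cannot tell a higher share from a lower one, and nothing is read from them. Both windows with the ROR letters are shown because they are the 2 matches, with the match in capitals. Rnf152, the gene of a lysosomal ubiquitin ligase at 124 against 8.13 CPM, has it 204 bases before the start, at chr1:105356711-105356960 on the minus strand. Gm13629, annotated as antisense and at 210.4 against 14.6 CPM, has the reverse complement 62 bases before the start, at chr2:66440630-66440879 on the plus strand.
Rnf152: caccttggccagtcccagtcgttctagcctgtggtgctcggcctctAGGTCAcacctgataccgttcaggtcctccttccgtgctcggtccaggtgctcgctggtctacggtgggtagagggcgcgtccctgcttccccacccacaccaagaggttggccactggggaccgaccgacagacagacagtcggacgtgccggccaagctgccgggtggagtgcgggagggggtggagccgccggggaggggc
Gm13629: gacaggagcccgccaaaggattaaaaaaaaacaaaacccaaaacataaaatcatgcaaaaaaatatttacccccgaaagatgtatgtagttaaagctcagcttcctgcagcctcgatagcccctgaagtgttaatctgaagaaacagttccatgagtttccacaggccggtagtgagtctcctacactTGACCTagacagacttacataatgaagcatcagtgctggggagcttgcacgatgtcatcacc
A match describes letters in this window and names no binding site. Whether the counting used strand is not given, so reads of Gm13629 and of a gene on the other strand cannot be told apart.

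Among the 10 lowest ratios were genes that hippocampal neurons carry. Zeb2, a zinc finger homeobox repressor, stood at 104 CPM in the thalamic nuclei against 925 CPM in the others, 8.92-fold lower (7.35 to 10.9), and was found in 28 of the 128. In aKO it stood at 16.1 against 1050.0 CPM. Iqgap2, a scaffold of the actin skeleton, stood at 24.2 against 376 CPM, 15.6-fold lower (10.5 to 24.3). Itpka, a kinase of inositol trisphosphate in dendritic spines, held 13 UMIs (13.1 against 103 CPM) in tKO and 0 in aKO. Trpc6, Jph1, Itga8 and Ndst4 were 11.6-fold, 9.11-fold, 8.15-fold and 7.10-fold lower. A single nucleus gave 47.4% of the 19 Glis3 UMIs and 69.4% of the 36 UMIs of 6530403H02Rik, and Gm2164 is annotated as antisense. Without cluster 2 the 10 log2 ratios ran from -7.83 to -3.63, beside -3.96 to -2.83 with it, and Zeb2 moved from -3.16 to -6.13.

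**Figure D2:**
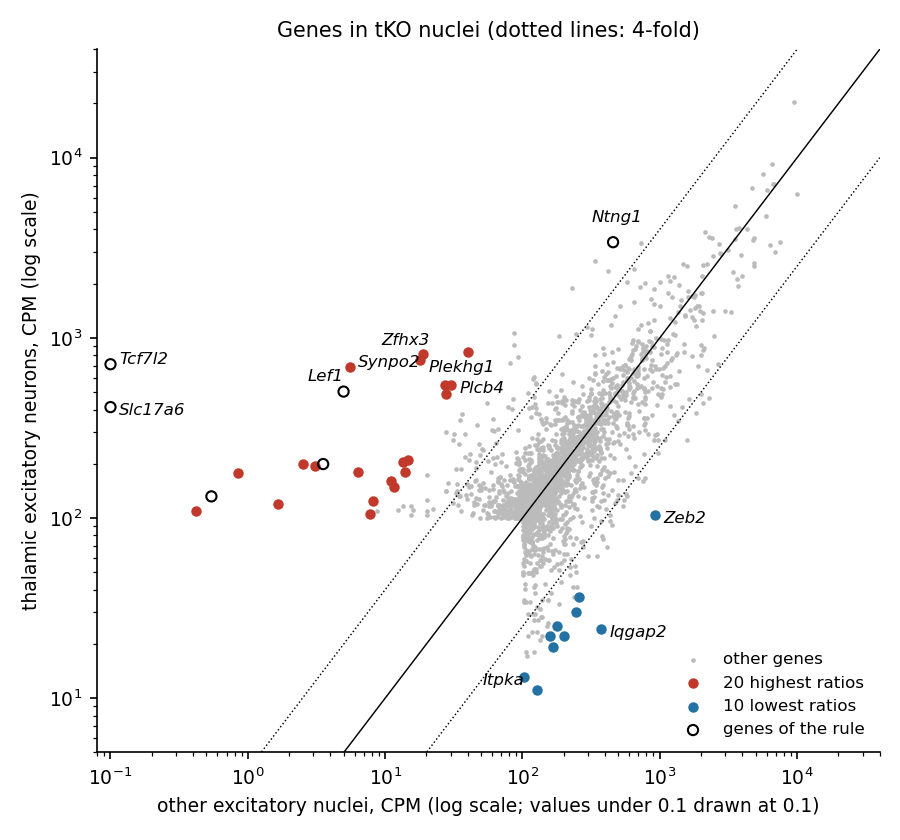
Each point is 1 of the genes tested in the tKO library, with CPM in 7685 other excitatory nuclei on the horizontal axis and CPM in the 128 thalamic excitatory neurons on the vertical axis, both on log scales. The solid line marks equal levels and the dotted lines 4-fold. Synpo2 at 689.7 against 5.51 CPM lies far above the upper dotted line, and Zeb2 at 104 against 925 CPM lies below the lower one. The straight lower left edge comes from the minimum of 100 UMIs.

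Transcription factors of thalamic development were present in part. Of 12 listed genes, 4 had enough UMIs, and 1 of these, the forkhead factor gene Foxp2, was at least 4-fold higher, at 354 against 61.2 CPM, beside 3.93% of all genes tested. Foxp2 entered only through its level in the thalamic nuclei. Zic4 stood at 47.3 against 0.217 CPM in tKO, 218-fold (118 to 428), and at 64.4 CPM in aKO. Lhx9 stood at 48.3 against 10.5 CPM, 4.59-fold (3.35 to 6.16), and Prox1, shared with dentate granule cells and habenula, at 124 against 61.3 CPM. Gbx2, an early factor of thalamic development, gave 3 UMIs, and Olig3, a gene of thalamic progenitors, gave 0. Lhx2 and Etv1 stood below the comparison, at 0.485 times (0.232 to 0.895) and 0.429 times (0.318 to 0.567).

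Relay and midline genes are given one by one, since for them too the minimum of UMIs shaped the count. Of 12 listed, 6 had enough UMIs and 5 of them were at least 4-fold higher, beside 3.93% of all genes tested. Of the 6, 4 entered only through their level in the thalamic nuclei, and all 4 of these are among the 5, so nothing is read from the count. Necab1 and Adarb2 entered by the level of the comparison nuclei. Necab1 stood at 179 against 102 CPM in tKO, 1.76-fold (1.51 to 2.05), and at 56.4 against 70.9 CPM in aKO, 0.796 times (0.320 to 1.64). Vav3, a guanine nucleotide exchange factor, stood at 918 against 86.2 CPM, Adarb2, of the RNA-editing enzyme family, at 2356 against 416 CPM, and Patj, a scaffold of cell polarity, at 209 against 41.1 CPM. Among genes with fewer UMIs, Ramp3 stood at 56.4 against 1.89 CPM, Rgs16 at 19.1 against 0.326 CPM and Calb2, the calretinin gene of midline nuclei, at 24.2 against 2.16 CPM. Tnnt1 gave 12 UMIs in 10 nuclei, and Grm4, a presynaptic glutamate receptor, stood at 71.5 against 8.97 CPM. Calb1, the calbindin gene, did not stand apart, at 48.3 against 51.0 CPM, 0.947 times (0.697 to 1.26).

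Ion channel genes parted by family member. Cacna1g stood at 95.7 against 25.3 CPM in tKO, 3.78-fold (3.04 to 4.65), and at 121 against 26.9 CPM in aKO. The other T-type genes lay on the opposite side, Cacna1h at 4.03 against 31.1 CPM and Cacna1i at 15.1 against 35.5 CPM. Without cluster 2, described with the other clusters further on, Cacna1h gave 0 UMIs and Cacna1i moved from 0.425 to 0.0466 times (0.00118 to 0.260). Of the genes of hyperpolarization-activated channels, Hcn4 gave 18 UMIs and stood at 18.1 against 0.543 CPM, and Hcn2 at 52.4 against 26.0 CPM. Kcnc2, a potassium channel of fast-spiking cells, stood at 2673 against 340.1 CPM, 7.86-fold (7.55 to 8.18), and Kcnc1 at 144 against 48.4 CPM. Trpc4 stood at 41.3 against 249.8 CPM, and moved from 0.165 to 0.0795 times (0.0411 to 0.139) without cluster 2. Of 17 genes on this list, 9 had enough UMIs, with 1 at least 4-fold higher and 2 at least 4-fold lower, beside 3.93% and 2.8% of all genes tested.

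Transmitter genes parted by subunit. Slc17a7 stood at 96.7 CPM in the thalamic nuclei of tKO against 376 CPM in nuclei chosen for that gene, and was found in 50 of the 128. Of the AMPA receptor genes, Gria4 stood at 1586 against 644 CPM, 2.46-fold (2.34 to 2.59), whereas Gria1 stood at 664 against 2209 CPM, 0.300 times (0.278 to 0.324), and Gria2 at 0.410 times. Without cluster 2 Gria1 stood at 333 CPM, 0.151 times (0.130 to 0.173), and Slc17a7 at 62.9 CPM. Grm5, a glutamate receptor that acts through phospholipase C, stood at 0.472 times (0.448 to 0.498). The genes of the extrasynaptic GABA receptor of relay cells were both higher, Gabra4 at 633 against 194 CPM and Gabrd at 112 against 22.2 CPM. Gabra2 and Gabra5, subunits typical of hippocampus, stood at 0.397 times (0.354 to 0.444) and 0.298 times (0.225 to 0.387), the second moving to 0.192 times (0.120 to 0.291) without cluster 2. In aKO the same 4 GABA receptor genes lay on the same sides, at 5.06, 10.3, 0.146 and 0.116 times the other excitatory nuclei. Of 25 genes on the list, 22 had enough UMIs, with 1 at least 4-fold higher and 0 lower, beside 3.93% and 2.8% of all genes tested, and the 1 higher gene, Gabrd, entered only through its level in the thalamic nuclei.

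Axon guidance and adhesion genes also split. Robo1, a receptor for Slit proteins, stood at 3353 against 733 CPM, 4.58-fold (4.42 to 4.74), and Robo2 at 358 against 812 CPM, 0.441 times (0.396 to 0.490). Efna5, a ligand of ephrin receptors, stood at 377 against 132 CPM, while the receptors Epha5, Epha6 and Epha7 stood at 0.416, 0.421 and 0.456 times. Of the other ephrin receptor genes listed, Epha3 stood at 1.01 times (0.901 to 1.136) and Epha4 at 0.776 times (0.698 to 0.860). The 4 cadherin genes listed differed, with Cdh4 4.23-fold and Cdh6 3.55-fold higher, Cdh8 at 1.17 times (1.08 to 1.26) and Cdh11 at 0.643 times (0.574 to 0.719). Of 19 genes on the list, 15 had enough UMIs, with 2 at least 4-fold higher and 0 lower, beside 3.93% and 2.8% of all genes tested. Of those 2, Cdh4 entered only through its level in the thalamic nuclei and Robo1 by the level of the comparison nuclei.

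Activity-regulated genes had a lower sum in the thalamic nuclei, and most could not be counted singly. The 17 listed genes summed to 295 CPM (262 to 331) in tKO against 778 CPM in the other excitatory nuclei, and to 201 CPM (130.3 to 297) against 599 CPM in aKO. Homer1, a scaffold of the postsynaptic density, gave 136 of the 293 UMIs in tKO and stood at 137 against 383 CPM, and the other listed genes summed to 158 against 394 CPM. Nr4a2 stood at 14.1 against 68.9 CPM, Bdnf at 14.1 against 57.6 CPM and Arc at 3.02 against 20.8 CPM. Without cluster 2, which held 12 of the 14 Nr4a2 UMIs, Nr4a2 moved from 0.205 to 0.0480 times (0.00581 to 0.174), Arc from 0.145 to 0.0796 times (0.00201 to 0.444) and Bdnf from 0.245 to 0.374 times (0.199 to 0.640). Fos stood at 8.05 against 5.21 CPM, a ratio of 1.54 (0.662 to 3.08), on 8 UMIs. Of the 17, Homer1 alone had enough UMIs to be counted, and it was under 4-fold lower.

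Markers of other cell types were read as whole lists. The 14 midbrain and pretectum genes gave 1 UMI in tKO, with 13 at 0 or not listed, and the 9 hypothalamus genes gave 4 UMIs, with 7 at 0 or not listed. Both lists gave 0 in aKO. The 9 telencephalic excitatory genes summed to 56.4 CPM (42.6 to 73.2) in tKO and 8.05 CPM (0.204 to 44.9) in aKO, against 326 and 332 CPM in the other excitatory nuclei, and 10 of the 128 tKO nuclei held at least 2 of their UMIs. The 9 dentate granule and CA genes summed to 671 CPM (621 to 723) in tKO against 697 CPM, and 82.0% of the thalamic nuclei held at least 2 of their UMIs beside 79.1% of the others. Cpne4, a copine, gave 489 of these 666 UMIs, and the rest summed to 178 against 382 CPM. In aKO the same list stood at 338 against 758 CPM. Inhibitory, medium spiny, Cajal-Retzius and choroid lists summed to 46.3, 54.4, 77.5 and 38.3 CPM in tKO, against 41.1, 42.7, 61.2 and 29.7 CPM in the others. The microglia list was higher in the thalamic nuclei, at 60.4 CPM (46.1 to 77.8) against 42.1 CPM in tKO and at 105 CPM (55.7 to 179) against 43.4 CPM in aKO. The astrocyte list was lower in tKO, at 179 against 219 CPM, and higher in aKO, at 378 against 213 CPM, but nearly all of its UMIs were of Slc4a4, a bicarbonate cotransporter gene. Slc4a4 gave 173 of the 178 in tKO and all 47 in aKO, at 174 and 378 CPM against 192 CPM in the other excitatory nuclei of either library. Oligodendrocyte, oligodendrocyte precursor and vascular lists were lower in tKO, at 85.6, 15.1 and 9.06 CPM against 301, 21.7 and 34.4 CPM. The part of these other cells in the results was not tested. Of the 6 astrocyte genes 2 were at 0 in the 128 nuclei (Gja1 and Gfap), and of the 6 microglia genes 2 (Csf1r and Tmem119). Of the 6 vascular genes 4 were at 0, Cldn5 among them, and of the 9 inhibitory genes 4, Vip and Lhx6 among them. The other genes of these lists gave UMIs.

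Genes of the habenula, the neighbour of the thalamus that also uses Slc17a6 and Tcf7l2, lay in a minority of the tKO nuclei. The 10 listed genes summed to 369 CPM (332 to 408) in tKO against 211 CPM in the other excitatory nuclei. At least 2 of their UMIs were held by 25 of the 128 nuclei (19.5%), beside 36.8% of the other excitatory nuclei. Nwd2 gave 309 of the 366 UMIs, and the rest of the list summed to 57.4 against 6.999 CPM. Pou4f1, a transcription factor gene of habenular neurons, gave 12 UMIs in 9 nuclei, Tac2, a neuropeptide gene of the medial habenula, 15 UMIs in 7, and Gpr151 8 UMIs in 5. Nwd2 was found in 33 nuclei at 311 CPM against 204 CPM in other excitatory nuclei, and without cluster 2 it stood at 23.2 CPM, 0.113 times (0.0620 to 0.190). In aKO the whole list gave 1 UMI, of Nwd2. The rule by itself thus did not keep habenular genes out of the tKO nuclei.

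**Figure D3:**
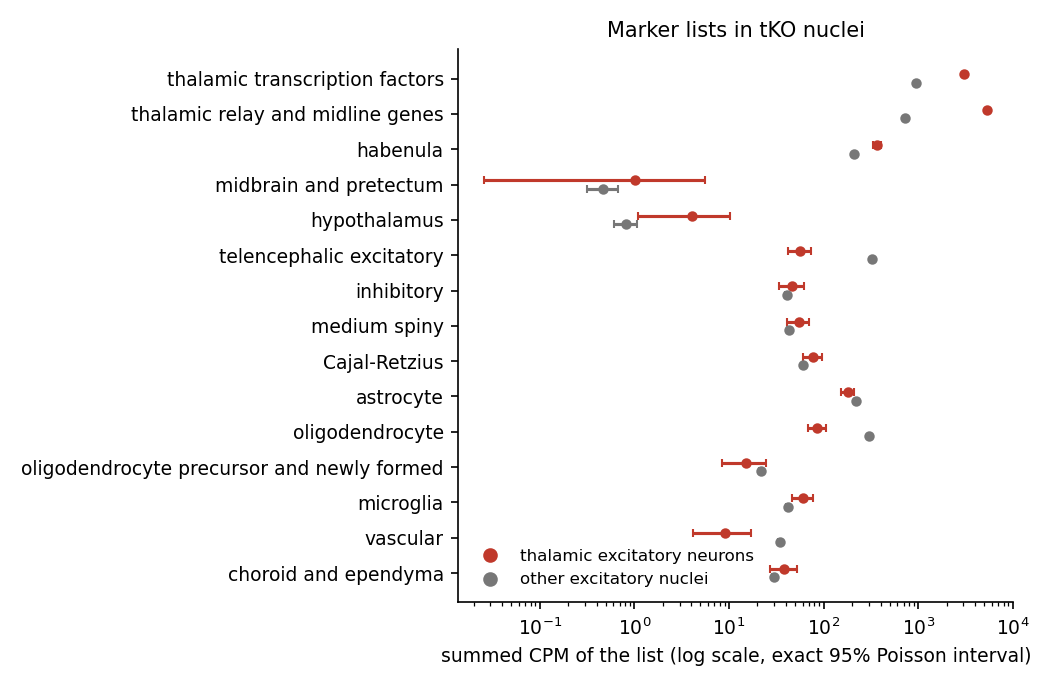
Summed CPM of marker lists in the tKO library on a log scale, for the 128 thalamic excitatory neurons (red) and 7685 other excitatory nuclei (grey), with exact 95% Poisson intervals. The 2 thalamic lists lie to the right of the grey points, the telencephalic list at 56.4 CPM lies to the left of 326 CPM, and the midbrain list rests on 1 UMI. Rora gave 2399 of the 3076 CPM of the thalamic transcription factor list in the 128 nuclei. At least 2 UMIs of that list were held by 98.4% of these nuclei and by 90.8% of the others.

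The nuclei were not uniform. Clustering the 146 without the genes of the rule, sex genes and mitochondrial genes gave 4 clusters, kept as numbers here. Cluster 1 held 46 nuclei (40 tKO, 5 aKO, 1 WT), cluster 2 held 44 (42 tKO, 1 aKO, 1 WT), cluster 3 held 30 (28 tKO, 1 aKO, 1 nKO) and cluster 4 held 26 (18 tKO, 8 aKO). Most aKO nuclei thus lay in clusters 1 and 4. Scrublet marked 0 of 46 in cluster 1, 22 of 44 in cluster 2 (50.0%), 14 of 30 in cluster 3 (46.7%) and 6 of 26 in cluster 4 (23.1%). The genes that set the clusters apart were used to form them, so their values are a description. Values given with and without cluster 2 are likewise a description.

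Cluster 1 carried 6 of the 12 listed relay and midline genes at their highest level, among them Adarb2, Plekhg1, Synpo2 and Vav3, while 5 were highest in cluster 3 and 1, Ramp3, in cluster 4. Its leading genes were Vipr2, a receptor for vasoactive intestinal peptide, Csgalnact1, an enzyme of chondroitin sulfate synthesis, Prkcd, Mctp2 and Adarb2. Prkcd was found in 41 of its 46 nuclei at 449 CPM (381 to 525), against 95.9, 97.2 and 169 CPM in clusters 2, 3 and 4. Lef1, Ntng1, Rora and Synpo2 were also highest there, at 888, 5187, 3640.0 and 1282 CPM. Gabrd stood at 221 CPM against 54.1 to 127 CPM in the other clusters. Cnr1 gave 1 UMI in 46 nuclei.

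Cluster 3 was led by Necab1, a neuronal calcium-binding protein, the non-coding Gm32647, Nxph1 and Thsd7b. Necab1 was found in 27 of 30 nuclei at 552 CPM (453 to 667), against 75.0 to 83.6 CPM elsewhere, and Foxp2 in 27 nuclei at 685 CPM against 167 to 397 CPM. Gabrg1, a less common GABA receptor subunit, stood at 86.9 CPM on 17 UMIs. Prkcd was low at 97.2 CPM. Cluster 4 was led by Alk, a receptor tyrosine kinase, Kirrel3 and Chsy3. It also held Cntn5, a contactin, at 4730 CPM against 1583 CPM in the other clusters, with Robo1 at 5419 CPM and Gabrb1 at 2447 CPM. Its Kcnc2 level of 3910 CPM (3649 to 4184) overlapped that of cluster 1 at 4077 CPM (3868 to 4295).

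Cluster 2 had the lowest share of nuclei with a UMI for 8 of the 12 relay and midline genes and for 3 of the 12 thalamic transcription factor genes. For the transcription factor genes the order of clusters 1 and 2 turned with the measure. By share of nuclei cluster 1 was lowest for 4 of the 12, and by CPM cluster 2 was lowest for 4 and cluster 1 for 2. Nr2f2 had a UMI in 32.6% of nuclei in cluster 1, 22.7% in cluster 2, 3.33% in cluster 3 and 3.85% in cluster 4. Lef1 was found in 23 of its 44 nuclei and Synpo2 in 19, and Rora stood at 1497 CPM against 2283 CPM or more in the other clusters. All 12 Pou4f1 UMIs and all 15 Tac2 UMIs lay in this cluster, and 15 of its nuclei held at least 1 UMI of Pou4f1, Tac2, Gpr151, Chrna3 or Chrnb3, as did 1 nucleus each of clusters 1 and 3. Its leading genes included Klhl1, Syt6, Pde1a and Nwd2. Telencephalic genes reached 2 UMIs in 11 of the 44 and in 0 nuclei of the other clusters. Plcb1 at 838 CPM, Gria1 at 1138 CPM and Cnr1 at 49.2 CPM were highest in it, while Epha6, at 1212 CPM, was highest in cluster 3 at 1836 CPM. At least 2 UMIs of Cajal-Retzius genes were held by 10 of its nuclei, of oligodendrocyte genes by 10, of inhibitory genes by 6 and of medium spiny genes by 4, beside 3, 2, 5 and 1 nuclei of the other 3 clusters together. Cluster 3, with nearly the same share marked by Scrublet, had 0 nuclei at 2 telencephalic UMIs. The part of doublets and of other cells in cluster 2 was not tested. Without cluster 2 the rule left 86 nuclei in tKO, 14 in aKO, 1 in WT and 1 in nKO, and the tKO share was 2.12 times that of aKO (1.20 to 4.04).

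**Figure D4:**
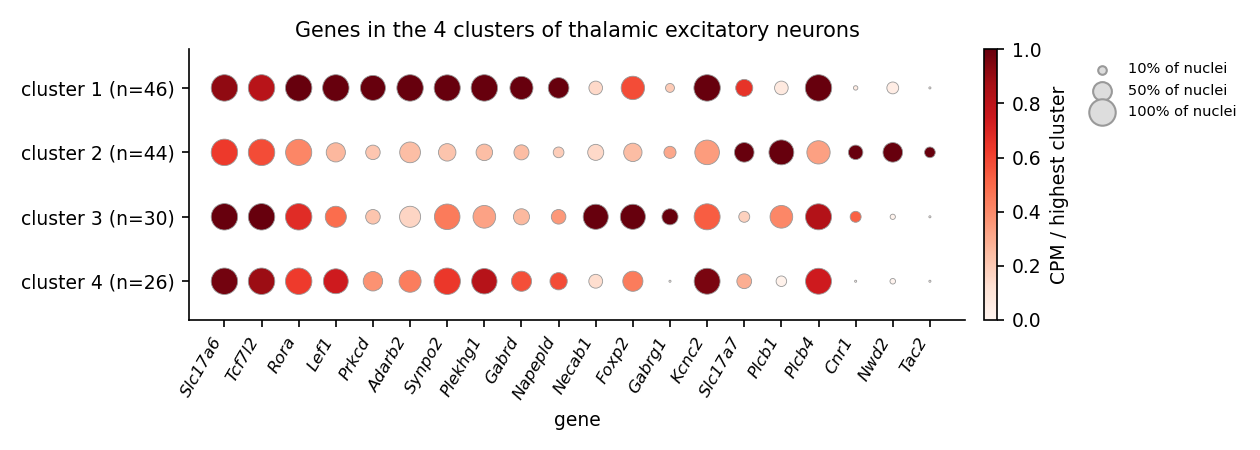
Genes in the 4 clusters of the 146 thalamic excitatory neurons. Circle size is the percent of nuclei with at least 1 UMI and colour is CPM divided by that of the highest cluster. Prkcd and Adarb2 are darkest in cluster 1, Necab1 and Foxp2 in cluster 3, and Plcb1, Nwd2 and Tac2 in cluster 2.

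The endocannabinoid genes were read across the 2 libraries with more than 2 thalamic nuclei. Of 16 genes, 13 were detected in tKO, while Gpr55, Trpv1 and Ptgs2 were at 0 UMIs in both libraries, and 3 counts would have stood at 3.02 CPM in tKO. Dagla and Daglb, which make 2-arachidonoylglycerol, stood at 75.5 and 35.2 CPM in tKO and 96.6 and 16.1 CPM in aKO. Of the enzymes that degrade endocannabinoids, Abhd6 stood at 80.5 and 121 CPM, Abhd12 at 102 and 80.5 CPM and Faah at 73.5 and 64.4 CPM. Intervals overlapped for each of these 5 genes. Cnr1, the gene of the CB1 receptor, stood at 25.2 CPM in tKO against 69.3 CPM in the other excitatory nuclei, 0.363 times (0.235 to 0.537), and gave 1 UMI in aKO. Of its 25 UMIs in tKO, 20 lay in cluster 2, and without that cluster it stood at 8.27 CPM, 0.119 times (0.0387 to 0.279).

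Phospholipase C genes, which act upstream of 2-arachidonoylglycerol, parted. Plcb4, the form typical of thalamic relay cells, stood at 549 against 30.3 CPM in tKO, 18.1-fold (16.5 to 20.0), and at 846 against 17.3 CPM in aKO. The 2 WT nuclei held 13 UMIs and the nKO nucleus held 2. Plcb1 lay on the opposite side, at 412 against 1463 CPM in tKO, 0.281 times (0.255 to 0.310), and at 56.4 against 1404 CPM in aKO. Without cluster 2 it stood at 141 CPM in tKO, 0.0961 times (0.0768 to 0.119). Plcb4 was found in 118 of the 128 tKO nuclei. Napepld, an enzyme of anandamide synthesis, stood at 60.4 against 29.9 CPM in tKO and 88.6 against 36.3 CPM in aKO, and was highest in cluster 1 at 129 CPM. Of the 16 genes, 7 had enough UMIs in the comparison with other excitatory nuclei, with 1 at least 4-fold higher and 0 lower, beside 3.93% and 2.8% of all genes tested. The 1 higher gene was Plcb4, which entered only through its level in the thalamic nuclei.

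Between tKO and aKO nuclei, 3955 genes had at least 50 UMIs over both, and 403 (10.2%) stood at least 2-fold higher and 68 (1.72%) at least 2-fold lower in tKO, together 471 (11.9%). No gene was ranked, since ranking was reserved for libraries with at least 20 thalamic nuclei each. Of the 16 endocannabinoid genes 10 had enough UMIs, 2 were at least 2-fold higher in tKO, Mgll and Plcb1, and 0 were lower. Mgll was 7.63 times as high in tKO as in aKO (1.32 to 306), on 61 UMIs against 1. The ratio was 8.47 (1.44 to 342) without cluster 2 and 7.53 (1.27 to 306) without the nuclei marked by Scrublet. Within cluster 1 the Mgll ratio was 3.51 (0.567 to 145), and within cluster 4, which held 8 of the 15 aKO nuclei, aKO held 0 Mgll UMIs and the ratio had a lower bound of 1.09. Clusters 2 and 3 held 1 aKO nucleus each, with 0 Mgll UMIs. Plcb1 was 7.31 times as high (3.51 to 18.3), 3.35 times (1.38 to 10.6) without cluster 2, 3.17 times (1.48 to 8.07) without the nuclei marked by Scrublet and 18.3 times (5.01 to 152) with Lef1 required. Within clusters 1, 2 and 3 the Plcb1 ratio was 1.51 (0.365 to 13.4), 2.11 (0.580 to 17.5) and 0.588 (0.192 to 2.93), and in cluster 4 aKO held 0 UMIs against 4, so each interval covered equal levels. Plcb4 stood at 0.649 times (0.526 to 0.808), at 0.813 times (0.655 to 1.02) without cluster 2, and at 0.548 times (0.411 to 0.739) within cluster 1 and 1.03 times (0.705 to 1.52) within cluster 4.

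**Figure D5:**
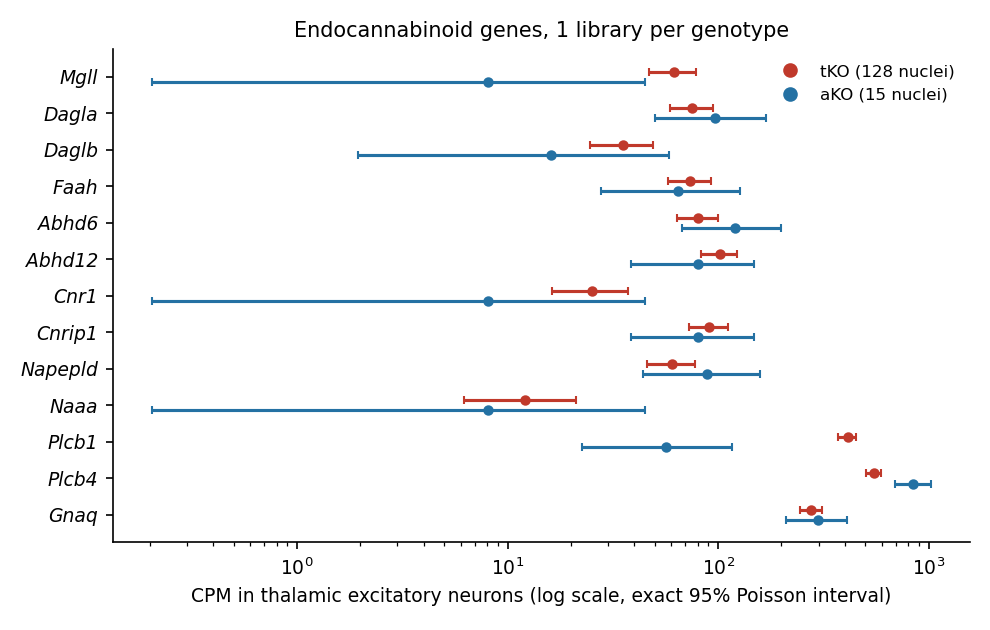
CPM of endocannabinoid genes in thalamic excitatory neurons of tKO (128 nuclei, red) and aKO (15 nuclei, blue), on a log scale with exact 95% Poisson intervals. Genes at 0 in both are left out. The intervals of Mgll, Plcb1 and Plcb4 do not overlap between the 2 libraries when all clusters are summed. Blue intervals reach far down for Mgll, Cnr1 and Naaa, which rest on 1 UMI in aKO.

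Other genes also differed between these libraries, and leaving out cluster 2 changed some of the ratios and not others. Nwd2 was 38.6 times as high in tKO (6.88 to 1531), and 2.76 times (0.420 to 117) without cluster 2. Gria1 was 2.35 times as high (1.68 to 3.41) and 1.20 times (0.828 to 1.79) without it. Both genes were highest in cluster 2, which was formed from the counts of these same nuclei, so a move of their ratios was built in. Epha5 stood at 552 CPM in tKO and 105 CPM in aKO, 5.27 times (3.06 to 9.96), and 4.41 times (2.42 to 8.95) without cluster 2. Without that cluster Gabra2 moved from 2.74 to 2.33 times, Necab1 from 3.18 to 4.05 times and Stxbp6, a syntaxin-binding protein, from 5.83 to 6.57 times. Within clusters 1, 3 and 4 the Necab1 ratio was 1.38 (0.423 to 7.13), 1.48 (0.399 to 12.4) and 3.396 (0.780 to 30.8), and cluster 3, where Necab1 was highest, held 28 tKO nuclei and 1 aKO nucleus. Robo2 moved from 2.47 times (1.54 to 4.22) to 5.72 times (2.39 to 17.9), and within cluster 2, with 1 aKO nucleus, it stood at 0.211 times (0.121 to 0.404).

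Prkcd and Lef1 lay on the other side, at 0.538 times (0.389 to 0.759) and 0.553 times (0.450 to 0.685), and at 0.681 and 0.708 times without cluster 2. Within cluster 1, with 40 and 5 nuclei, Prkcd stood at 0.927 times (0.587 to 1.53) and Lef1 at 0.817 times (0.597 to 1.137). Within cluster 4, with 18 and 8 nuclei, they stood at 0.243 times (0.111 to 0.504) and 0.560 times (0.396 to 0.793). Without the nuclei marked by Scrublet, Prkcd stood at 0.746 times (0.535 to 1.06), Adarb2 moved from 0.693 to 0.942 times (0.847 to 1.05) and Gabra2 to 1.61 times (0.921 to 3.05). Thinning to 2000 UMIs left 13 nuclei and 1, and Gria1 then stood at 0.923 times (0.137 to 39.5), an interval that covers either direction. Sex genes differed between the 2 libraries as well, with Xist or Uty found among the aKO nuclei and only Uty in tKO, and their part in these ratios was not tested.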

How the data were processed

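Nuclei of mouse hippocampus gave 4 RNA libraries made with a 10x Genomics kit for chromatin and RNA of the same nuclei, per the labels' protocols. The deposited values are whole, unnormalized UMI counts, 1 per gene in each barcode. Cell Ranger ARC 2.0.0 and the build mm10 are named in the submitters' processing notes. The sources used here do not state the annotation, the selection of barcodes or the use of strand. Libraries were grouped by the genotype label. The 4 libraries held 9369 (WT), 31243 (tKO), 10731 (aKO) and 8945 (nKO) barcodes, and 39020, 993202, 124177 and 7033 UMIs lay in thalamic nuclei, which sets the precision.

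Counts of nuclei were summed and expressed as CPM of their total. Sums carry exact Poisson intervals, ratios exact conditional binomial intervals and shares exact Clopper-Pearson intervals, at 95%. Genes were named by these rules: the genes of the rule, the 20 highest and 10 lowest ratios among genes with at least 100 observed or expected UMIs in tKO, and fixed lists, and some of these genes are not reported here. A planned ranking between libraries was not made with under 20 nuclei in aKO. The thalamic nuclei and the lists were chosen with earlier results of these data known. Log2 ratios were taken from the CPM ratios with no pseudocount. A floor of 3 counts was used where the comparison nuclei held 0 UMIs. Doublets were called, not removed, by Scrublet in scanpy 1.11.5, at 0.8% per 1000 barcodes. Clusters used counts scaled to 10000, 1000 variable genes, 15 components, 15 neighbours and Leiden resolution 0.5 (leidenalg 0.10.2). The scripts were tested on simulated data. Of 22989 symbols, 97.9% were found in GENCODE M21. Other cut-offs, comparison nuclei, depths and filters were tried as alternatives.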

Additional observations from a re-analysis of the deposited data

How the results depend on the processing

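The uneven spread over libraries held under every alternative to the rule that was tried, with tKO above aKO in number and share, while the numbers moved. The tKO library held 195 thalamic nuclei with at least 1 Slc17a6 UMI, 74 with at least 3, 86 without cluster 2 and 97 with Lef1 required. The nKO library held 0 with at least 3 Slc17a6 or Tcf7l2 UMIs or with Lef1 required. Thinned to 2000 UMIs per nucleus, the libraries held 0 (WT), 13 (tKO), 1 (aKO) and 0 (nKO), with 92.9% from tKO, and a share in tKO 4.93 times that in aKO (0.740 to 209), so depth limits these numbers. Leaving out cluster 2 and requiring Lef1 were chosen after seeing the data. Genes at least 4-fold higher than in other excitatory nuclei numbered 239 at a minimum of 20 UMIs, 23 at 500, 134 against dentate granule nuclei, 51 against all other barcodes and 32 in the other 3 libraries summed. Genes at least 4-fold lower numbered 181, 15 and 108 under the first 3 of these, 35 in the other 3 libraries and 98 without cluster 2. Genes at least 2-fold higher in tKO than in aKO numbered 1095 at a minimum of 20 UMIs, 147 at 100, 157 without nuclei marked by Scrublet, 11 after thinning and 150 without cluster 2. Those at least 2-fold lower numbered 316, 12, 22, 6 and 24, and 45 without nuclei that carried at least 2 UMIs of telencephalic or glial and vascular markers. The number of genes tested changed with the minimum and with the nuclei compared, so these counts cannot be set against each other as results. With the main settings 2215 genes were tested against other excitatory nuclei and 3955 between tKO and aKO. Of medium spiny nuclei, 75, 927, 57 and 61 (WT, tKO, aKO, nKO) were found with 1 Rgs9 UMI, and 426 in tKO without barcodes marked by Scrublet. Higher calls outnumbered lower ones, 87 to 62, and this order turned in the other 3 libraries summed (32 to 35) and without cluster 2 (80 to 98), and was 84 to 83 without nuclei marked by Scrublet. The cause was not tested. Of the 20 leading genes, 16 stayed at least 4-fold higher against all other barcodes, and of the 10 lowest, 9 stayed at least 4-fold lower against dentate granule nuclei and 5 of the 8 with a value did in the other 3 libraries summed. Under these settings none of the 30 genes changed sign. In single libraries with 1 or 2 nuclei some did. Gm2164 stood at 1.37 times the other excitatory nuclei in WT (0.551 to 2.82) and Itga8 at 2.08 times in nKO (0.567 to 5.33). Of the 20 leading genes, Synpo2, Plekhg1, Adamts19, Ebf1, Vwc2, Rnf152, Syt9, Mctp2 and Cpne9 gave 0 UMIs in nKO. Gm29478 gave 0 UMIs in WT. No paired analysis was possible because each genotype has 1 library and the labels carry no replicate numbers.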
